A study of Mus musculus with 6 samples.

Results

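The 10 genes Kdr, Tek, Pecam1, Cdh5, Vegfa, Pdgfra, Pdgfrb, Ly6a, Tcf7l2 and Twist2, known as markers or signals of endothelial or mesenchymal cells, were followed in the chromatin of muscle stem cells (MuSCs). Kdr, Tek, Pecam1 and Cdh5 mark the endothelium. Vegfa encodes the main ligand of the endothelial receptor KDR, and Pdgfra, Pdgfrb, Ly6a, Tcf7l2 and Twist2 are used to mark fibro-adipogenic progenitors, pericytes and connective tissue fibroblasts. A peak was assigned to one of these genes when it carried the gene's symbol, or when it carried no symbol and lay between the gene's start and stop. By this rule 54 of 75412 peaks belonged to 9 of the 10 genes. Ly6a had no peak.

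ATAC-seq, which reads the DNA that the transposase Tn5 can reach, was done on freshly isolated MuSCs of C57BL/6 mice, in 3 control and 3 Taf4a sKO libraries. The sKO mice carry Pax7CreERT and a Taf4a allele with loxP sites around exons 11 and 12, so that tamoxifen deletes Taf4a in cells that express Pax7. The labels call the other genotype Control, with WT in the titles. Across the study, controls were littermates with the floxed Taf4a allele, either without or with Pax7CreERT, and the strain list names tamoxifen for the sKO mice. Whether the control mice behind these libraries received it is not given in the sources used here. Mice of both genotypes could carry the Pax7-zsGreen reporter. The form each library came from is not given either. Cells bearing SCA1 (encoded by Ly6a), CD31 (encoded by Pecam1) or CD45 (encoded by Ptprc) were removed with magnetic beads before the MuSCs were sorted, so the products of Ly6a and Pecam1 were themselves used against the cells they mark. The study reanalysed sorted cells and reports that most but not all were of the sorted population. It gives no purity for these libraries in particular, so other cells may contribute to any peak. Values are normalised read counts per peak. Their sums over all peaks were 37722015, 35226223 and 42803315 in controls 1 to 3 and 44311913, 41661725 and 41948821 in sKO 1 to 3. These sums are not raw depths, so no counting error is attached to single values. The study calls the libraries biological replicates, the labels do not tie them to single animals, and p-values measure the spread between these libraries.

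A peak over exon 12 of Taf4 (chr2:179922849-179923263) held 65, 78 and 137 normalised reads in controls and 44, 22 and 25 in sKO libraries. The groups did not overlap and the log2 difference was -1.58 ± 0.30 (SE, adjusted p = 0.000336). The Taf4 promoter peak did not pass the test, with 2305, 1998 and 2375 against 2095, 2124 and 2104 (adjusted p = 0.592). Another Taf4 peak, 3331 bp from the start site (chr2:179979788-179980166), rose from 488, 437 and 653 to 831, 695 and 759 (0.55 ± 0.14, adjusted p = 0.00295). The direction at exon 12 is that of the labels, reads were left there in every sKO library, and the positions of the loxP sites are not given in the sources used here.

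As background, endothelial cells respond to VEGF through KDR and to angiopoietins through TEK (TIE2), and hold together through PECAM1 and VE-cadherin (CDH5). PDGF receptor alpha marks fibro-adipogenic progenitors and PDGF receptor beta marks pericytes, which line capillaries next to the MuSC niche. Accessible promoters are often found at genes that are active or poised, and accessible intronic regions often act as enhancers of the same or another gene.

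The labelled cell type was checked first by promoters. All 14 of 14 MuSC markers, Pax7, Myf5 and Cdh15 among them, had a promoter peak, here a peak centred within 1000 bp of the start site. Their median rank was at percentile 50.4 of 11828 promoter peaks by normalised reads per kb of peak in controls. Of the 32 other endothelial genes, 14 had a promoter peak, with a median at percentile 12.1. The corresponding numbers were 21 of 25 and 22.9 for fibroblast genes, 10 of 12 and 32.3 for pericyte and smooth muscle genes, and 2 of 12 and 22.0 for haematopoietic markers. They were 3 of 7 and 57.3 for Schwann cell markers, above the MuSC markers, and 2 of 5 and 38.8 for tenocyte markers. Ptprc had no peak at all within 130853 bp of its start site. Over all protein-coding genes, 12300 of 21938 (56.1%) had a peak over the start site, and 13539 (61.7%) had any peak reaching within 1000 bp of it. The list counts above use the centre of the peak and its assigned gene, so neither share is a like background for them. Of the 10 genes described here, Kdr, Tek, Vegfa, Pdgfrb, Tcf7l2 and Twist2 had a peak over the start site. The start sites of Pecam1, Cdh5, Pdgfra and Ly6a lay outside any peak.

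The 6 promoters spanned nearly the whole range of accessibility. Tcf7l2, which encodes a transcription factor at the end of the canonical Wnt pathway, ranked at the 83.9 ± 0.97 percentile in controls (SD, n = 3). Vegfa followed at 45.6 ± 0.89, Tek at 40.9 ± 5.11 and Pdgfrb at 38.8 ± 2.62. These last 3 neighbours were close. The ranges of Vegfa and Tek overlapped between control libraries, as did those of Tek and Pdgfrb. Kdr ranked at 4.55 ± 0.95 and Twist2, a basic helix-loop-helix repressor of mesenchymal cells, at 0.38 ± 0.32. In sKO libraries the order was Tcf7l2, Tek, Vegfa, Pdgfrb, Kdr and Twist2. The Tek promoter stood at 51.6 ± 1.15 and the Twist2 promoter at 3.81 ± 1.59. Twist2 thus stayed among the least accessible promoters in both genotypes. The order depended on the measure. By the value of the whole peak instead of per kb, Vegfa, with the widest peak, came first at 89.5 in controls, above Tcf7l2 at 72.1, and Twist2 stood at 2.45, still the lowest of the 6.

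**Figure D1:**
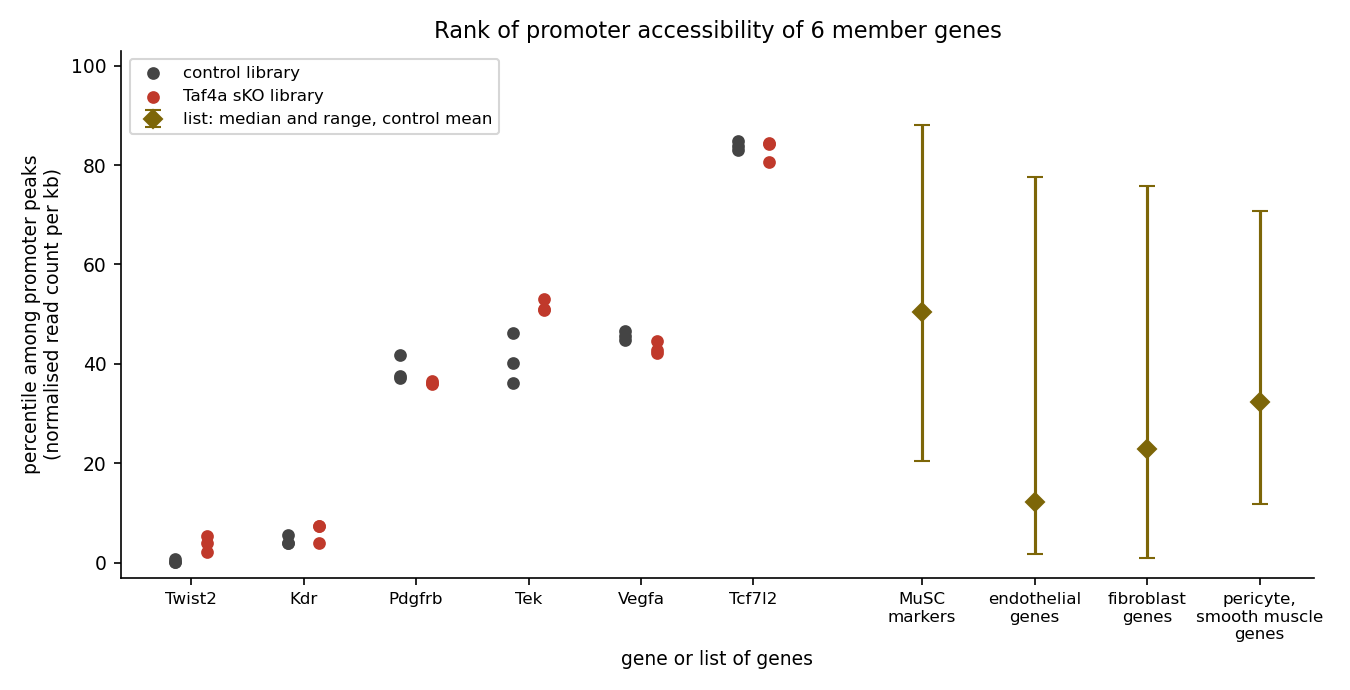
Percentile of promoter accessibility (y axis, normalised read count per kb of peak, among 11828 promoter peaks) for 6 genes, with one point per library, and the median and range over the genes of 4 lists (diamonds and bars, control means). The sKO points lie above all control points for Twist2 and Tek, and Twist2 and Kdr sit under the 8th percentile in every library.

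All 54 peaks passed the minimum mean of 10 normalised reads and were tested within the fit over 75384 peaks. In sKO MuSCs 15 were higher and 9 lower at an adjusted p under 0.05 (27.8% and 16.7%), against 28.0% and 13.9% of all peaks. These shares were close to those of all peaks. Past a log2 ratio of 1, 3 were gained and 3 lost, against 7.02% and 5.36% of all peaks. In 17 peaks every sKO library exceeded every control and in 10 every sKO library was below, against 32.3% and 18.0% of all peaks. The sKO libraries were higher on the whole. The median log2 difference over all peaks was 0.11, and it became -0.0059 when libraries were scaled by a trimmed mean of M values (TMM). With TMM, 14 of the 54 were higher and 14 lower, against 25.4% and 22.3% of all peaks. Counts moved with single control libraries, as they did over all peaks. Without control 2, 10 of the 54 were higher and 6 lower (18.5% and 11.1%, against 21.3% and 11.8% of all peaks), and without control 3 the counts were 21 and 9 (38.9% and 16.7%, against 37.8% and 12.9%).

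Of the 23 peaks of Kdr, Tek, Pecam1 and Cdh5, 10 were higher and 3 lower (43.5% and 13.0%, against 28.0% and 13.9% of all peaks), with a median log2 difference of 0.29. Of the 29 peaks of Pdgfra, Pdgfrb, Tcf7l2 and Twist2, 5 were higher and 6 lower (17.2% and 20.7%), with a median of -0.05. Of the 10 higher endothelial calls 6 were at Pecam1, Tek moved both ways and the called Cdh5 peak was lower. Tcf7l2 alone held 17 of the 29 peaks of the second group and 3 of its 6 lower calls. With TMM the counts were 9 and 3 (39.1% and 13.0%), and 5 and 10 (17.2% and 34.5%), against 25.4% and 22.3% of all peaks. With quantile normalisation they were 10 and 3 (43.5% and 13.0%), and 5 and 13 (17.2% and 44.8%), against 24.8% and 25.1% of all peaks. Tcf7l2 held 7 of the 10 lower calls of the second group with TMM and 10 of the 13 with quantile normalisation. These lower shares thus largely describe 1 gene. Without control 2 the endothelial genes had 5 higher and 2 lower calls (21.7% and 8.70%), near the shares of all peaks in that fit. Without control 3 they had 14 and 3 (60.9% and 13.0%), and without sKO 3 they had 9 and 1 (39.1% and 4.35%, against 23.6% and 11.6% of all peaks). The difference between these groups of genes was not tested. Since a peak's value sums over many nuclei, more nuclei with an open region and a more open region per nucleus cannot be told apart.

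Pecam1, which encodes the junctional adhesion molecule CD31, held 6 of the 10 higher calls among the endothelial genes. In sKO MuSCs 6 of its 9 peaks were higher and none was lower, also with TMM. Its summed signal was 2296, 2212 and 2610 in controls and 3461, 3195 and 3014 in sKO libraries. The groups did not overlap, and the sum was 35.9% higher (log2 difference 0.44 ± 0.10, adjusted p = 0.00011), where 22.2% of 21404 genes rose by this sum and 10.7% fell. An exact two-sided permutation test gave p = 0.1, the smallest that 3 against 3 libraries allow. All 9 peaks were intronic, and the 6 that rose lay 27476 to 90872 bp downstream of the start site. No peak covered the start site itself. The nearest, 457 bp away and annotated to the neighbouring gene Milr1, held 110, 96 and 132 against 79, 82 and 95 (adjusted p = 0.102).

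The 2 gained Pecam1 peaks sat about 4 kb apart. The peak at chr11:106663790-106664092 held 51, 58 and 71 in controls and 126, 138 and 163 in sKO libraries, 2.37 times the control mean (log2 difference 1.24 ± 0.19, adjusted p = 2.25e-05). The peak at chr11:106659606-106659905 held 71, 89 and 94 against 192, 222 and 146 (1.12 ± 0.19, adjusted p = 4.42e-05). In each of them the lowest sKO library stood above the highest control. The third firm increase was at chr11:106722731-106723573, with 160, 148 and 240 against 334, 317 and 270 (0.77 ± 0.17, adjusted p = 0.00105). The strongest Pecam1 peak (chr11:106674224-106675672) went from 1092, 980 and 1130 to 1571, 1351 and 1223 (0.37 ± 0.11, adjusted p = 0.0112). This call and those of the peaks at 106666448 and 106679887 were lost without control 2 (adjusted p = 0.0517, 0.0542 and 0.0605), leaving 3 higher peaks. The first was also lost without sKO 1 (0.109). In limma without trend or robust moderation it was lost as well (0.0677), leaving 5 higher peaks. The second was lost without control 1 (0.0562), and the third without control 1 (0.111), sKO 1 (0.0802) or sKO 3 (0.0769). Without control 3 there were 8 higher peaks. The middle 200 bases of the gained peaks are shown because they are the only gained peaks among those of Kdr, Tek, Pecam1 and Cdh5. Letters in capitals match the motifs CCAAT (NF-Y) or GGAATG (TEAD) on either strand. The sequences are the plus strand of mm10.
Pecam1, chr11:106659655-106659854: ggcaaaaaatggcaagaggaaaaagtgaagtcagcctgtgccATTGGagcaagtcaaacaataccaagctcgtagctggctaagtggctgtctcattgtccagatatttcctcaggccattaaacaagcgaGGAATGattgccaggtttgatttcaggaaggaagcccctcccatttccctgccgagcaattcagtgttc
Pecam1, chr11:106663841-106664040: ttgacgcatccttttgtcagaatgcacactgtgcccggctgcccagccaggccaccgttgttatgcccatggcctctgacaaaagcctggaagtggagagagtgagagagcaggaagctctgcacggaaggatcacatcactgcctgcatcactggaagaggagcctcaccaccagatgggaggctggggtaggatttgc

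Tek, the angiopoietin receptor, had 11 peaks from the promoter to 98424 bp downstream, and they moved both ways. In sKO MuSCs 4 were higher and 2 lower. The promoter peak (chr4:94738536-94739917) rose from 1209, 1033 and 1505 to 1631, 1658 and 1590 (0.40 ± 0.12, adjusted p = 0.0102). Each sKO library exceeded each control, but without control 2 the adjusted p was 0.0645. In limma without trend or robust moderation it was 0.0753. The strongest peak, 13336 bp into the gene, held 3179, 2820 and 3422 against 3462, 3226 and 3111 and did not pass the test (0.06 ± 0.10, adjusted p = 0.673). A pair of neighbouring intronic peaks separated by 502 bp went in opposite directions. At chr4:94746225-94746804 the values rose from 225, 215 and 239 to 407, 449 and 410 (0.90 ± 0.14, adjusted p = 1.42e-05). At chr4:94747307-94747607 they fell from 156, 141 and 107 to 65, 33 and 31 (-1.69 ± 0.26, adjusted p = 3.35e-05), the largest change among the 54 peaks. The groups did not overlap at either.

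The remaining Tek calls were weak. The peak 19399 bp downstream was lower (-0.56 ± 0.20, adjusted p = 0.0282), while those at 64125 and 71488 bp were higher (0.61 ± 0.24 and 0.97 ± 0.32, adjusted p = 0.0435 and 0.0164). None of the 3 exceeded 150 normalised reads in any library. All 3 calls failed without 1 or more single libraries: the first without control 2 (adjusted p = 0.132) or sKO 3 (0.261), the second without control 1 (0.186), control 2 (0.0825), sKO 1 (0.128) or sKO 2 (0.161), and the third without sKO 2 (0.0883). The second also failed with TMM (adjusted p = 0.082) and median-of-ratios scaling (0.0828), so that with TMM 3 Tek peaks were higher and 2 lower. The first also failed in limma without trend or robust moderation (adjusted p = 0.0687). The summed signal of Tek overlapped between genotypes, 6589, 5872 and 7315 against 7669, 7456 and 7162 (0.18 ± 0.11, adjusted p = 0.241). It passed without control 3 (0.26, adjusted p = 0.00445), a fit in which 39.6% of all gene sums were higher. The lost region is given here, with a match to ACAAAG, the core letters that Sox and Tcf factors recognise, in capitals.
Tek, chr4:94747357-94747556: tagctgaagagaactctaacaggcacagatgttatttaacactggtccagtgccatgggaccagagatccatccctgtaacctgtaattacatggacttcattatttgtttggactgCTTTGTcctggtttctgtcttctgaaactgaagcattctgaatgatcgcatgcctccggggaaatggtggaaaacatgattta

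Kdr and Cdh5 had little accessible chromatin. Kdr, the main signalling receptor for VEGF, had 1 peak, at its promoter (chr5:75978053-75978769), with 111, 114 and 143 in controls and 151, 144 and 114 in sKO libraries. The groups overlapped (0.15 ± 0.18, adjusted p = 0.532). Cdh5, the adhesion molecule of endothelial adherens junctions, had an intronic peak 20383 bp downstream (chr8:104121770-104122246) that was lower in sKO MuSCs, 106, 79 and 124 against 80, 59 and 50. Its groups overlapped by 1 unit between sKO 1 and control 2 (-0.70 ± 0.22, adjusted p = 0.013), and without sKO 3 the adjusted p was 0.0698. Its other peak, 10189 bp upstream, held 65, 71 and 90 against 87, 79 and 76 (adjusted p = 0.7). At Vegfa neither of its 2 peaks passed the test. Its promoter peak (chr17:46030487-46033499) held 2974, 2818 and 3183 against 3082, 2865 and 2924 (-0.02 ± 0.10, adjusted p = 0.915). With TMM it was lower by a small amount (-0.13, adjusted p = 0.0201).

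Among the PDGF receptors, Pdgfra had 5 peaks and none over its start site. The strongest, 4252 bp downstream, held 1188, 1105 and 1298 against 1357, 1259 and 1277 (0.12 ± 0.11, adjusted p = 0.393). A peak centred 2297 bp downstream, the nearest by its edge at 1778 bp, held 415, 404 and 464 against 594, 493 and 506, without overlap and just outside the threshold (0.31 ± 0.13, adjusted p = 0.0576). A small peak centred 2177 bp upstream (chr5:75150030-75150200) was lower, with 56, 45 and 48 against 35, 23 and 35 (-0.68 ± 0.27, adjusted p = 0.0439). That call was lost without control 1 (0.149), control 2 (0.0785) or sKO 2 (0.205), and with quantile normalisation (0.0515). The summed signal of Pdgfra was 2048, 1906 and 2174 against 2389, 2235 and 2261 (0.17 ± 0.10, adjusted p = 0.191), and it passed without control 3 (0.22, adjusted p = 0.00972), again beside 39.6% of all gene sums.

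At Pdgfrb the intronic peaks also moved both ways, while the promoter did not pass the test. The promoter peak (chr18:61044651-61045570) held 742, 713 and 912 against 773, 754 and 751 (-0.05 ± 0.12, adjusted p = 0.781). Downstream, 2 peaks rose. The one at chr18:61055294-61056022 went from 197, 175 and 241 to 312, 384 and 386 (0.82 ± 0.15, adjusted p = 0.000154). Its neighbour at chr18:61056305-61057521 went from 282, 313 and 334 to 441, 449 and 489 (0.57 ± 0.13, adjusted p = 0.00131). Farther downstream 2 peaks fell. At chr18:61061115-61061280 the values were 47, 43 and 62 against 17, 27 and 23 (-1.15 ± 0.29, adjusted p = 0.00244), and at chr18:61074505-61074904 they were 75, 70 and 106 against 43, 45 and 46 (-0.87 ± 0.22, adjusted p = 0.0032). Genotypes did not overlap at any of these 4 peaks. Their sum with the rest, 1436, 1406 and 1772 against 1690, 1762 and 1792, did not pass the test (0.19 ± 0.10, adjusted p = 0.118). Without control 3 it did (0.30, adjusted p = 0.000353), as did 39.6% of all gene sums.

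**Figure D2:**
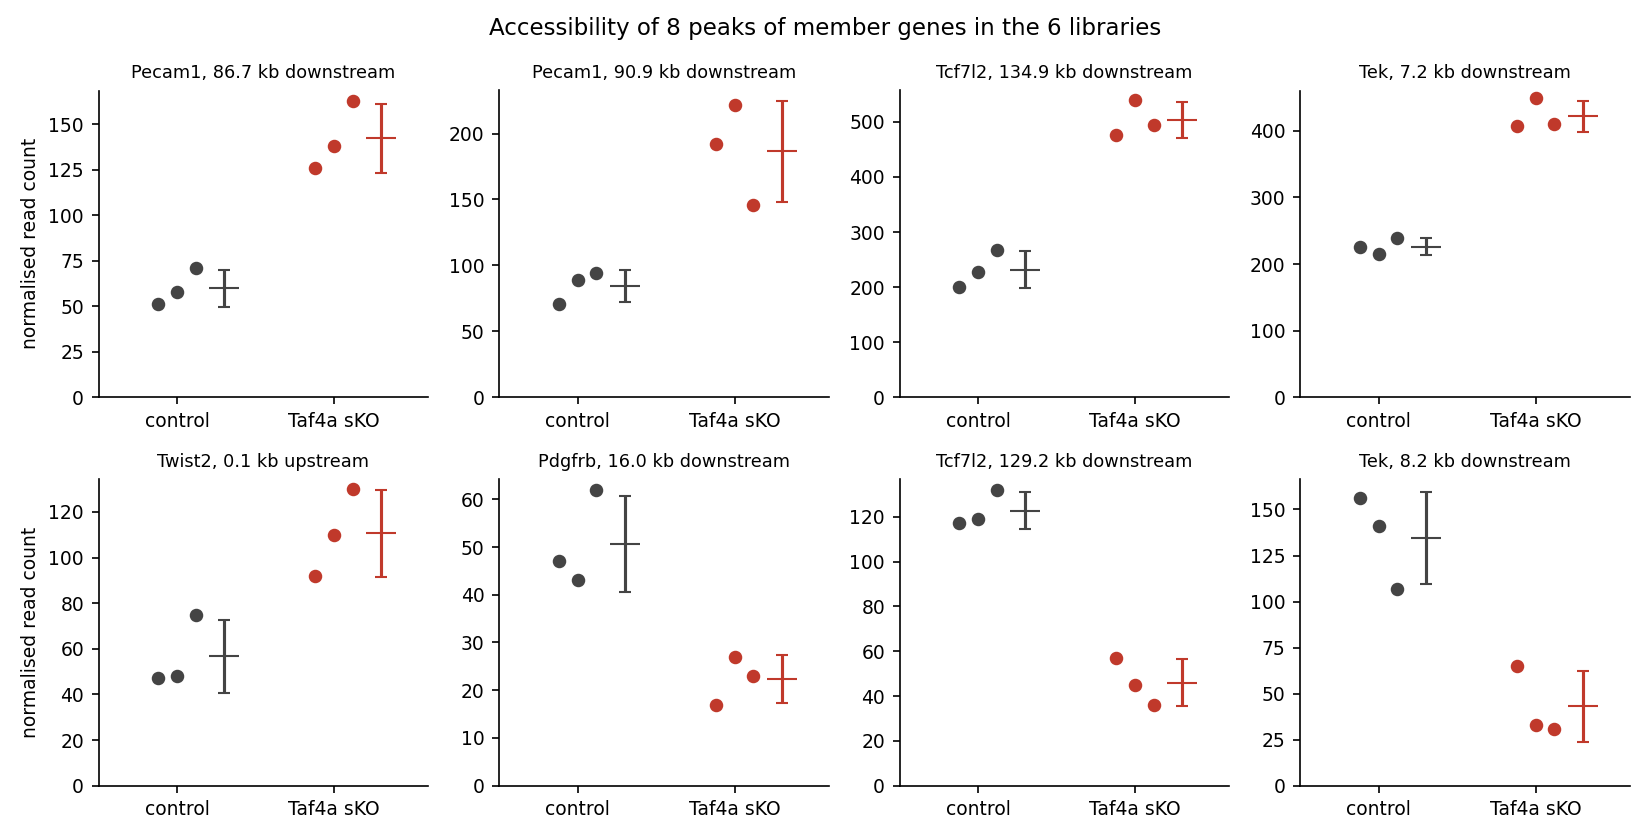
Normalised read counts (y axis, from 0) of 8 peaks in the 3 control and 3 Taf4a sKO libraries, one point per library, with the mean and SD beside them; titles give the distance of the peak centre from the gene's start site. The 3 gained, 3 lost and 2 further peaks each separate the genotypes, for example 65 or fewer against 107 or more at the lost Tek peak.

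Tcf7l2 had 17 peaks, the most of the 10 genes. Its promoter peak (chr19:55740962-55741970) held 2021, 1765 and 2193 against 2213, 1936 and 2063 (0.06 ± 0.11, adjusted p = 0.693). In the fit as reported 4 of its 5 calls fell in one stretch 129198 to 139121 bp downstream, where all 4 assigned peaks passed the test. In order along the gene, the first was lost (chr19:55870903-55871133), from 117, 119 and 132 to 57, 45 and 36 (-1.42 ± 0.21, adjusted p = 1.14e-05). The next rose (chr19:55875317-55876096), from 393, 366 and 467 to 556, 591 and 559 (0.48 ± 0.13, adjusted p = 0.00422). The third was gained (chr19:55876517-55876972), from 200, 227 and 267 to 476, 540 and 494 (1.13 ± 0.14, adjusted p = 1.36e-06). The last fell (chr19:55880665-55881217), from 381, 364 and 496 to 205, 255 and 215 (-0.87 ± 0.15, adjusted p = 6.94e-05). None of the 4 overlapped between genotypes.

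Elsewhere in Tcf7l2 only the peak 38197 bp downstream passed, with 67, 67 and 91 against 42, 59 and 49 (-0.57 ± 0.23, adjusted p = 0.0449). It did not pass without control 2 (adjusted p = 0.0734), control 3 (0.131), sKO 1 (0.158) or sKO 3 (0.0949). With TMM, 7 Tcf7l2 peaks were lower and 2 higher, and 5 of the lower ones lay outside the stretch, at 15029, 38197, 40055, 83733 and 153821 bp. With quantile normalisation 10 Tcf7l2 peaks were lower and 2 higher. The gene's sum hardly moved, 6607, 6133 and 7547 against 6816, 6736 and 6754 (0.0067 ± 0.11, adjusted p = 0.974), and was lower with TMM (-0.11, adjusted p = 0.041). The gained and the lost regions of the stretch are shown for comparison. Capitals mark GGAATG, the TEAD letters, next to an E-box, CAGCTG, in the gained region, and in the lost one the letters ATTGG, which read CCAAT on the other strand, as well as CTTTGT, which reads ACAAAG there.
Tcf7l2 gained, chr19:55876644-55876843: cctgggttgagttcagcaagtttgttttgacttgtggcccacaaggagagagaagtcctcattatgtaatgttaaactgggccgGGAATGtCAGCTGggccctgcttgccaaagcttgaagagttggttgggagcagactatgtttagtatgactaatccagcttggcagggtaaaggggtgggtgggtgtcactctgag
Tcf7l2 lost, chr19:55870918-55871117: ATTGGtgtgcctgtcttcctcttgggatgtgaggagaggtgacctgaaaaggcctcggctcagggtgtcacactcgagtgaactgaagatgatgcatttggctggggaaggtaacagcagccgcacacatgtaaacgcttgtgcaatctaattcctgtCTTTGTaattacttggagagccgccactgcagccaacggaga

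In all, 4 of the 45 pairs of neighbouring peaks within these genes were thus called in opposite directions, 8.89%, where 4.13% of 35653 such pairs over all genes were. Such pairs were picked for their directions, so their ratios are given without a test. They have the advantage that scaling of a library cancels. The log2 ratio of the higher to the lower peak at Tek was 0.53, 0.61 and 1.15 in controls and 2.63, 3.73 and 3.68 in sKO libraries. At Pdgfrb (61056305 over 61061115) it was 2.56, 2.83 and 2.41 against 4.62, 4.01 and 4.35. At Tcf7l2 the gained peak over the peak after it gave -0.93, -0.68 and -0.89 against 1.21, 1.08 and 1.20, so the order of the peaks turned over in every sKO library. The other Tcf7l2 pair gave 1.74, 1.61 and 1.81 against 3.26, 3.69 and 3.92. The gaps between paired peaks ranged from 502 to 4183 bp.

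**Figure D3:**
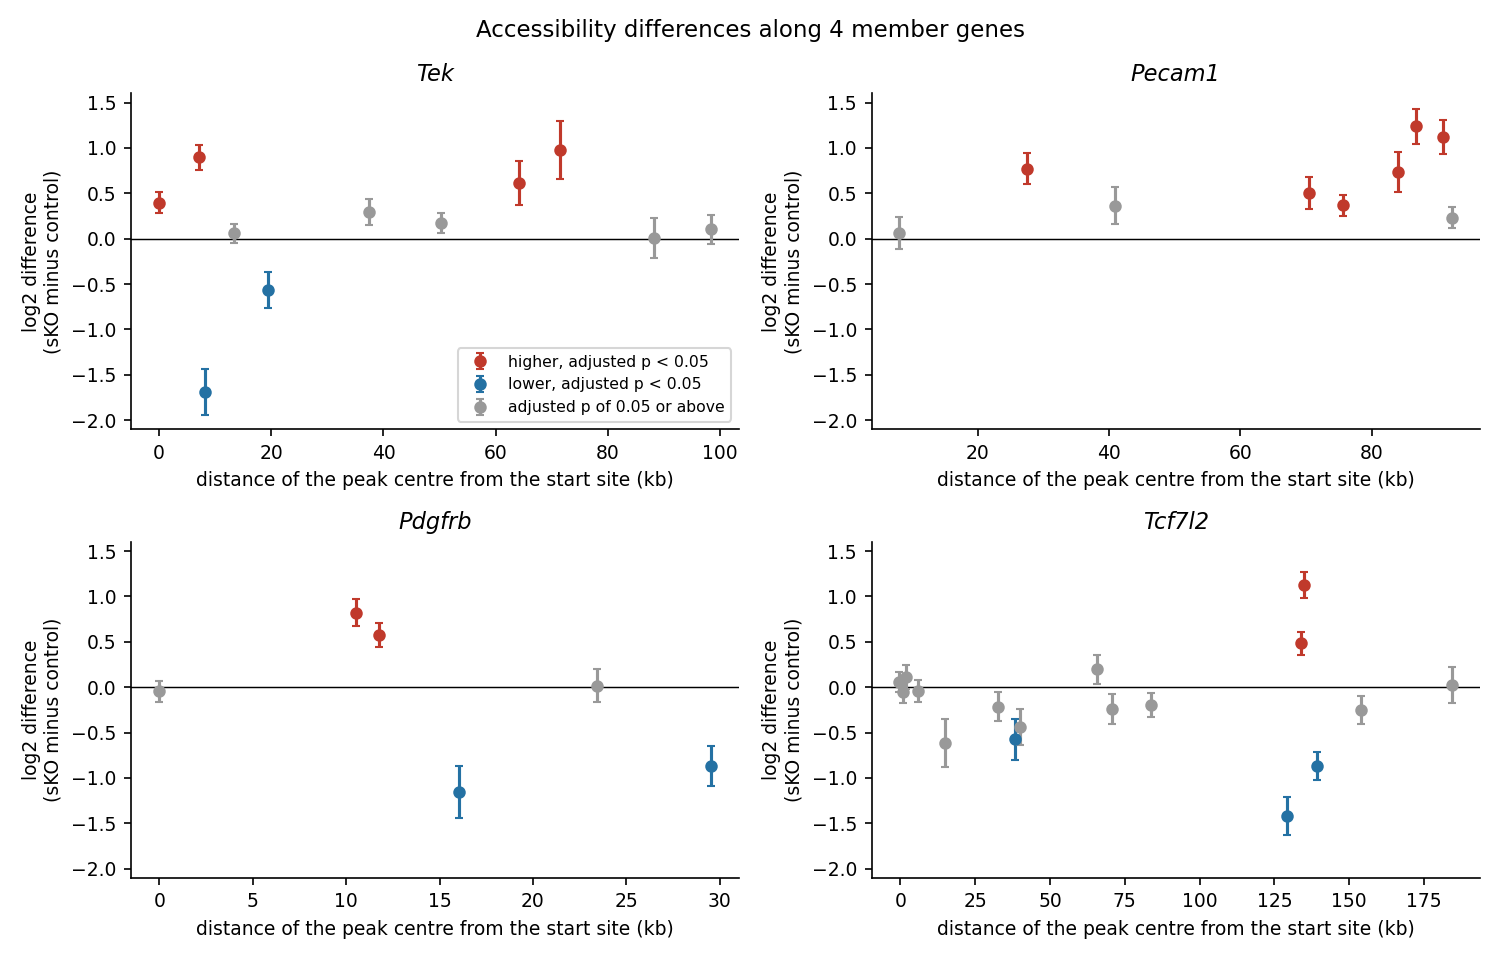
Log2 difference (sKO minus control, y axis, with SE) of each peak of 4 genes against the distance of its centre from the start site (x axis, kb); colours show the call. Tek, Pdgfrb and Tcf7l2 hold higher and lower peaks next to each other, at Tek 502 bp apart, while the 6 called Pecam1 peaks are all higher.

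Twist2 had a single peak, at its promoter (chr1:91800996-91801727). It held 47, 48 and 75 in controls and 92, 110 and 130 in sKO libraries, 1.95 times the control mean (0.97 ± 0.22, adjusted p = 0.00101; with TMM 0.86, adjusted p = 0.00339). The groups did not overlap. This was the only promoter besides that of Tek to pass, and over all peaks centred within 1000 bp of a start site 13.1% were higher and 6.59% lower. The RefSeq promoter of Twist2 (GRCm38.p6, chr1:91801211-91801510, plus strand, 250 bases before to 50 after the start) is rich in G and C at 64.7%, with 25 CpG dinucleotides, where the medians of 32850 RefSeq promoters are 52.7% and 7. It is shown for this contrast of a CpG-rich sequence with low accessibility. Capitals mark a CCAAT match, which 37.4% of those promoters hold.
Twist2 promoter: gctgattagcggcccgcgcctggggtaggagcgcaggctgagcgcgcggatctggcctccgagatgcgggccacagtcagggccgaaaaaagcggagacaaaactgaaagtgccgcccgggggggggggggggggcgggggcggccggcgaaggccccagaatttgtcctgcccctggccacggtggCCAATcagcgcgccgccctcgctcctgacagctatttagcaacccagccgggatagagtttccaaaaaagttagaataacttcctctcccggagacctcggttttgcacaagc

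Ly6a, which encodes SCA1, had no peak from chr15:74994877 to chr15:74998031. The nearest peak, annotated to the related gene Ly6i, lay 8246 bp from its start site (chr15:74988340-74989785) and rose from 235, 240 and 249 to 505, 577 and 594 (1.20 ± 0.13, adjusted p = 2.43e-07). It was picked after its values were seen, as were the next peaks. An unnamed peak at chr15:74967600-74968670 rose from 467, 430 and 463 to 588, 674 and 664 (0.50 ± 0.12, adjusted p = 0.00203), while one beyond the gene at chr15:75019609-75019809 held 47, 45 and 46 against 26, 51 and 40 (adjusted p = 0.431). All 3 sKO libraries exceeded all controls at the first 2 of these. None is assigned to Ly6a. Multi-mapping reads had been removed before peaks were called, and how well reads map uniquely across Ly6a was not tested. The missing peak therefore does not show that the locus was closed.

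The wider lists are to be read against all peaks, of which 28.0% were higher and 13.9% lower (25.4% and 22.3% with TMM), and no list was tested against them. Of 99 peaks of 28 endothelial genes, 35 were higher and 7 lower (35.4% and 7.07%, median 0.19; with TMM 31 and 14). Egfl7, a secreted endothelial factor, rose from 446, 564 and 648 to 1479, 1521 and 1662 in an upstream peak (1.5 ± 0.13, adjusted p = 9.97e-09). An intronic peak of Prox1, the regulator of lymphatic identity, rose from 242, 225 and 273 to 468, 465 and 450 (0.90 ± 0.14, adjusted p = 1.23e-05). The summed signal of Prox1 did not pass (0.115, adjusted p = 0.485), while that of Egfl7 was higher (1.31, adjusted p = 1.27e-36). Ets1 and Erg, which encode ETS family factors, had 1 and 4 gained peaks. The Ets1 promoter went from 44, 49 and 62 to 142, 181 and 134 (1.54 ± 0.20, adjusted p = 2.07e-06). Gained peaks also belonged to Sox18, Dll4, Plvap, Gja5 and Flt1, with log2 differences from 1.11 to 1.77. Lost peaks belonged to Gja5, Ets1 and Robo4, between -1.38 and -1.13. Aplnr, Emcn, Sox17 and Tie1 had no peak.

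For the ligands of these receptors the higher share was above that of all peaks and the lower share below it, also with TMM. Of 65 peaks of 12 VEGF, angiopoietin and PDGF ligands and co-receptors, 22 were higher and 7 lower (33.8% and 10.8%, median 0.21; with TMM 22 and 13). Angpt1, whose product activates TEK, had 4 gained intronic peaks. The strongest, 2206 bp downstream of the start site, went from 322, 322 and 455 to 781, 798 and 815 (1.14 ± 0.14, adjusted p = 7.8e-07). Pdgfb, a ligand of PDGF receptor beta, had a gained upstream peak, from 138, 146 and 228 to 469, 448 and 508 (1.51 ± 0.17, adjusted p = 6.75e-07). The largest loss was in an intron of Vegfd, from 306, 355 and 439 to 61, 63 and 59 (-2.55 ± 0.17, adjusted p = 3.21e-10). Pdgfc had a lost and a gained intronic peak (-2.53 and 1.27). Nrp1 and Vegfc each had a gained peak (1.41 and 1.15) and Pdgfa a lost one (-1.11). Angpt4 and Pdgfd had no peak.

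Fibroblast and fibro-adipogenic genes had 48 higher and 14 lower peaks of 110 (43.6% and 12.7%, median 0.29; with TMM 45 and 24). Smoc2, a matricellular protein gene, had 5 lost peaks, among them its promoter, from 63, 62 and 65 to 24, 22 and 27 (-1.35 ± 0.25, adjusted p = 0.00017). Gsn, which encodes the actin-severing protein gelsolin, lost an intronic peak from 197, 175 and 171 to 58, 45 and 66 (-1.68 ± 0.19, adjusted p = 3.37e-07). Fbn1, the fibrillin gene, had 4 gained peaks (1.04 to 1.54). The summed signals of Gsn and Fbn1 did not pass (0.18 and 0.083, adjusted p = 0.171 and 0.636). That of Smoc2 was lower (-1.31, adjusted p = 9.28e-25). The Lum promoter went from 60, 56 and 54 to 160, 126 and 143 (1.31 ± 0.19, adjusted p = 6.91e-06). Dcn, Dpt, Ly6e, Pi16 and Prrx1 also had gained peaks, and Thy1 and Prrx1 lost ones. Pericyte and smooth muscle genes had 21 higher and 1 lower of 49 peaks (42.9% and 2.04%, median 0.27; with TMM 18 and 7). The lower count was 3 without control 2 and 2 without control 3. A small coding-exon peak of Notch3, the pericyte Notch receptor, rose from 46, 52 and 49 to 143, 152 and 164 (1.62 ± 0.19, adjusted p = 4.54e-07), while the gene's summed signal did not pass (0.24 ± 0.11, adjusted p = 0.0853). Gained peaks of Myh11 and Anpep and a higher Acta2 peak (0.92) joined it. The 5 Wnt effector genes (Tcf7, Tcf7l1, Lef1, Axin2 and Ctnnb1) had 4 higher and 3 lower of 20 peaks (median 0.01). An intronic Tcf7l1 peak stood at 0.80 ± 0.17 (adjusted p = 0.000474) and an intronic Tcf7 peak at -0.53 ± 0.17 (adjusted p = 0.0155). A Lef1 peak stood at 0.32 ± 0.11 (adjusted p = 0.0265). With TMM the counts for these 5 genes were 2 and 5, and without control 2, sKO 2 or sKO 3 the higher count was 2.

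For markers of the sorted cells the shares were near those of all peaks. MuSC markers had 33 higher and 12 lower of 108 peaks (30.6% and 11.1%, median 0.16; with TMM 30 and 25). A Cdh15 intronic peak rose from 253, 226 and 244 to 776, 745 and 737 (1.64 ± 0.13, adjusted p = 2.48e-09), 2 Chrdl2 peaks were gained (1.17 and 1.24), an intronic Fgfr4 peak was higher (0.99), an intronic Megf10 peak was lost (-1.08), and 2 Pax7 intronic peaks were lost (-1.05 and -1.15), control 1 standing highest among the controls at each Pax7 peak. The summed signals of Pax7, Megf10 and Cdh15 did not pass (0.068, 0.12 and 0.24, adjusted p = 0.725, 0.494 and 0.085). Those of Chrdl2 and Fgfr4 were higher (0.305 and 0.489, adjusted p = 0.0179 and 5.06e-06). Haematopoietic markers had 8 peaks, 1 higher (Csf1r, 0.90) and 1 lower (Cd68, -0.84), while a Spi1 intronic peak gave 0.29 (adjusted p = 0.0684). Ptprc, Adgre1, Itgam, Cd3e, Ptpn6 and Laptm5 were among those with none. The haematopoietic counts were 2 higher and 1 lower without control 3, and 1 and 2 without control 1 or sKO 1 and with TMM. Schwann cell markers had 11 higher and 4 lower of 43 peaks (25.6% and 9.3%, median 0.14). With TMM these counts were 8 and 6 (median 0.03). Without control 3 they were 16 and 4, where 37.8% and 12.9% of all peaks were higher and lower. Of the Schwann cell markers, Ncam1 had 1 gained and 2 lost intronic peaks (1.26, -1.16 and -1.30), and Sox10 a lost upstream peak (-1.24). Ncam1 held most of the signal of this list, 10651 of 15168, 9931 of 14313 and 11678 of 17052 normalised reads in controls 1 to 3. The list therefore leans on 1 gene, and whether its peaks reflect Schwann cells was not tested. Tenocyte markers had 0 and 1 of 8 (median -0.06), the one being a lost intronic peak of Mkx with 31, 22 and 20 against 3, 15 and 4 (-1.86). These tenocyte counts became 2 and 2 without control 3, 0 and 2 with TMM, 1 and 3 with median-of-ratios scaling and 1 and 4 with quantile scaling. The part of any non-MuSC cells in the differences above was not tested.

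**Figure D4:**
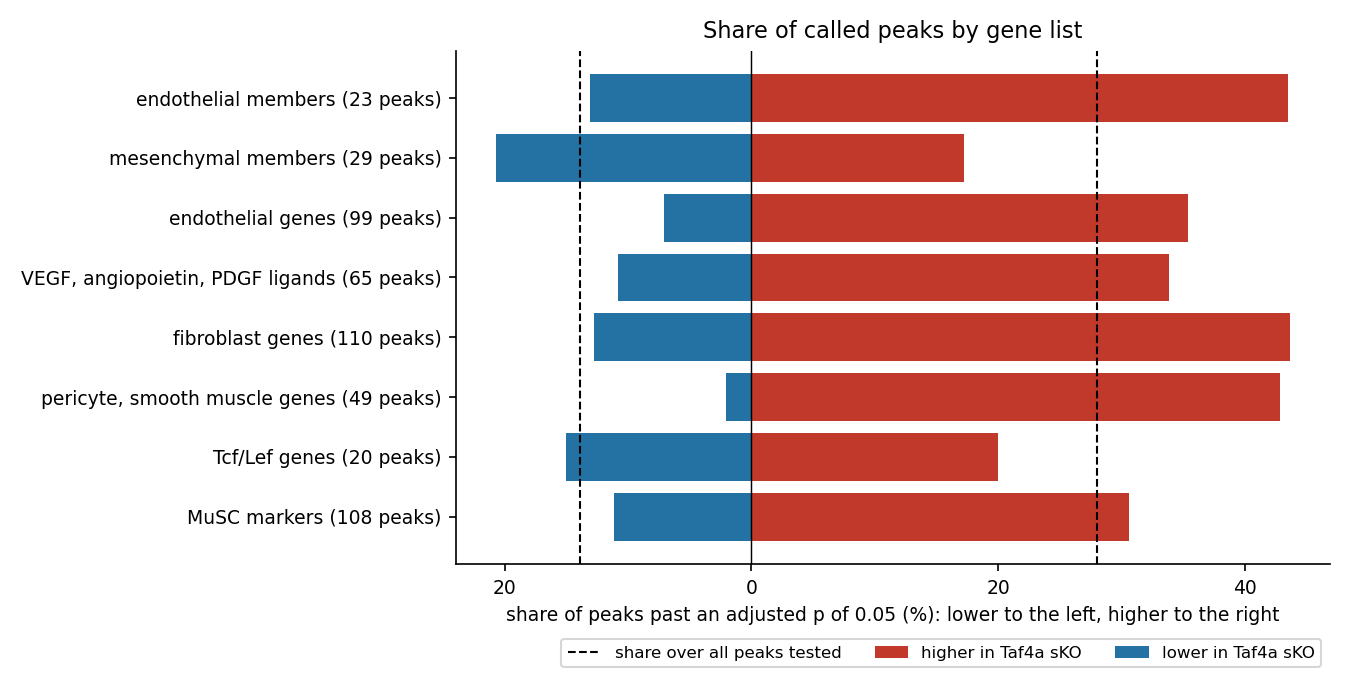
Share of peaks past an adjusted p of 0.05 (x axis, %), lower in sKO to the left and higher to the right, for 2 groups of the 10 genes and 6 lists, with dashed lines at the shares over all 75384 peaks (28.0% higher, 13.9% lower). All bars but those of the mesenchymal genes and of the Wnt effector genes (Tcf7, Tcf7l1, Lef1, Axin2 and Ctnnb1) reach past the dashed line on the right, up to 43.6%. The pericyte bar on the left is the shortest at 2.04%, a single peak that became 3 without control 2 and 7 with TMM.

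The sequences of the 54 peaks were set beside those of all peaks, without a test. Their median GC content was 53.2% against 50.5% over all peaks, their median number of CpG dinucleotides 2.06 against 1.59 per 100 bp, and their median width 569.5 against 590 bp. In the middle 200 bases of the peaks, CCAAT on either strand was found in 17 of 54 (31.5%) against 23.0% of all peaks, the letters of GATA factors, AGATAA, in 5 (9.26%) against 6.79%, and ACAAAG (Sox/Tcf) in 9 (16.7%) against 14.4%. TGANTCA (AP-1) was found in 5 (9.26%) against 17.3%, CAGCTG (E-box) in 10 (18.5%) against 21.6%, and GGAATG (TEAD) in 5 (9.26%) against 13.3%. TGTTTAC (forkhead) and TGTGGTT (Runx) were in 2 each (3.70%), against 2.46% and 4.43%. The ETS letters CCGGAAG were in none, against 2.89% of all peaks. Such matches describe the sequence and do not show that a factor was bound.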

How the data were processed

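The deposited table holds 1 row per peak and 6 sample columns, with whole-number scores: per the study's methods, the authors trimmed reads (Trimmomatic 0.39), aligned them to mm10 (STAR 2.7.11b), removed duplicates (Picard 3.1.1), spliced, multi-mapping, ribosomal and mitochondrial reads, called peaks with MACS, unified them, counted reads (featureCounts) and normalised for depth. A Tn5 offset is not described. The values are rounded normalised counts, so DESeq2, which the authors used for their contrasts, was not run, and the authors' fold changes and p-values were not used. The file's gene symbol is the nearest gene within about 10 kb (largest distance 10938 nt).

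Peaks with a mean above 10 (75384) were tested on log2(value + 1) with limma 3.58.1 (R 4.3.3, trend and robust) between control and Taf4a sKO, with Benjamini-Hochberg adjustment over all of them. A fold change on this scale understates the change of low peaks. Gained and lost mean a log2 ratio of group means above 1 or below -1. Gene sums were fitted likewise over 21404 genes, and single sums tested by exact permutation (SciPy 1.17.1). Positions relative to genes come from GENCODE vM21. Named peaks are those nearest a start site, past a threshold, or otherwise the strongest; of other lists, the 3 genes with the smallest p and those past the log2 thresholds. The genes, lists and motifs were chosen with earlier results of these data known. Scaling, pseudocount, minimum mean, limma options, a replicate block and leaving out each library were the alternatives.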

Additional observations from a re-analysis of the deposited data

How the results depend on the processing

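The count of 15 higher and 9 lower peaks became 14 lower with TMM and with median-of-ratios scaling and 17 lower with quantile normalisation (25.9%, 25.9% and 31.5%, where 22.3%, 22.5% and 25.1% of all peaks were lower). When only peaks with the gene's symbol were used, which leaves fewer peaks, 3 were higher and 2 lower. The shares over all peaks that carry a symbol are not given here, so these counts have no background to be read against. In limma without trend or robust moderation 13 were higher and 9 lower (24.1% and 16.7%, against 24.8% and 13.5% of all peaks). Kdr, Tek, Pecam1 and Cdh5 then had 8 higher and 2 lower peaks (34.8% and 8.70%). Leaving out one library gave 10 to 21 higher and 6 to 9 lower peaks, 2 to 4 gained and 2 to 4 lost peaks, and a median log2 difference from -0.005 to 0.135. That median, 0.084, turned to -0.027 with TMM, -0.028 with median-of-ratios and -0.038 with quantile normalisation. Gained and lost peaks were 10 and 7 of the 54 past 1.5-fold, where 14636 and 8651 of all 75384 peaks were. Past a log2 ratio of 1.5 they were 0 and 1, where 1103 and 1710 of all peaks were. Gene sums gave 2 higher (Pecam1 and Twist2) and 0 lower. Leaving out one library gave 2 to 5 higher and 0 lower, with 5 only without control 3, where 39.6% of all genes were higher. Of the 9 sums 3 were lower with TMM or median-of-ratios and 2 with quantile scaling, against 25.1%, 25.4% and 24.7% of all genes. At an unadjusted p under 0.05 no gene sum was lower in the fit as reported.

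Percentiles of promoters by value per peak instead of per kb were 33.0 (Pdgfrb), 6.62 (Kdr), 48.9 (Tek), 2.45 (Twist2), 72.1 (Tcf7l2) and 89.5 (Vegfa), so Vegfa, with the widest peak, then ranked first. With the nearest peak of every gene as the reference set they were 45.8 (Pdgfrb), 6.57 (Kdr), 47.7 (Tek), 0.619 (Twist2), 86.1 (Tcf7l2) and 52.1 (Vegfa). Without single libraries they ranged from 37.3 to 39.7 (Pdgfrb), 4.00 to 4.84 (Kdr), 38.1 to 43.2 (Tek), 0.199 to 0.482 (Twist2), 83.4 to 84.4 (Tcf7l2) and 45.2 to 46.0 (Vegfa).

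Of 389 values for 28 named peaks under 14 alternatives, 348 kept direction and side of the threshold, 30 no longer passed, 4 newly passed and 7 changed sign. The sign changes were at promoters that did not pass: Tcf7l2 at -0.053, -0.054 and -0.075 with TMM, median-of-ratios and quantile scaling and -0.026 without control 2, Vegfa at 0.03 without control 3 and 0.007 without sKO 2, and Pdgfrb at 0.062 without control 3. Over all single-library omissions these promoters ranged from -0.026 to 0.131, -0.058 to 0.03 and -0.115 to 0.062.

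Same-numbered libraries of the genotypes were not paired by the labels, and their deviations correlated at 0.11, -0.118 and -0.029. With the replicate block, 15 peaks were higher and 10 lower (27.8% and 18.5%, against 29.1% and 14.6% of all peaks). The gene sums again gave 2 higher and 0 lower, where 20.8% of all genes were higher and 10.2% lower. No other call among the named peaks changed. A planned count-based test on recovered reads was not run, since whole reads could not be recovered in every library. The table holds no raw counts, and the read numbers the study gives per library were not used here, so low peaks carry an unstated counting error.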
